A study of Mus musculus with 12 samples.

Results

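The 41 genes described here build ribosomes. They are the rows of the count table whose symbol is on a fixed list of nucleolar ribosomal RNA processing, RNA polymerase I and ribosome assembly genes, and all 41 were found among 55376 genes. The rule uses gene symbols and no measured value. By role it holds 4 subunits of RNA polymerase I, 3 box C/D and 5 H/ACA small nucleolar ribonucleoprotein genes, 14 genes of the small subunit processome and 40S maturation, 11 genes of 60S assembly and 4 abundant nucleolar proteins with several functions.

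RNA was measured in mouse cells that the labels name as progenitors from bone marrow (c-Kit+/Sca-1+/Lin-). This fraction is rich in blood stem cells, carries c-Kit and Sca-1 and lacks lineage markers. The cells were transduced, selected and cultured, so those measured need not still be of that fraction. There were 4 groups of 3 libraries. The first carried the NUP98-NSD1 fusion from an MSCV retrovirus with shNizp1#2, the second the fusion with shNizp1#1, the third the fusion with a control shRNA, and the fourth the empty MSCV retrovirus with the control shRNA. NUP98-NSD1 joins a nucleoporin to a histone H3 lysine 36 methyltransferase and is found in acute myeloid leukaemia. Nizp1, listed as Zkscan17, is a zinc finger protein that binds NSD1. The shRNAs were carried by pLKO.1-puro, geneticin was used to select transduced cells, and all 4 groups were cultured in RPMI with IL-3 at 20 ng/ml, IL-6 at 20 ng/ml and SCF at 100 ng/ml. No Nizp1 shRNA was given to empty-vector cells, the fusion is expressed from a retroviral vector in all transduced cells, and the labels name neither animals nor clones. The series speaks of independent experiments but ties no library to a culture or mouse, so p-values here rest on the spread between libraries, which may be technical.

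Ribosome production starts in the nucleolus, where RNA polymerase I transcribes the long precursor of the ribosomal RNAs. Small nucleolar ribonucleoproteins modify this precursor, box C/D particles by 2'-O-methylation and H/ACA particles by pseudouridylation, and separate sets of assembly factors cleave it and fold it into the 40S and 60S subunits. The genes are under MYC control in many cell types, and their expression rises with cell growth and division. In blood, dividing progenitors make many ribosomes, and ribosome production falls as granulocytes mature.

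Between 3586538 and 6842589 reads were counted in a library. Values are in CPM, the counts over a library's total after TMM scaling, and 3 counts equalled 0.417 to 0.837 CPM. All 41 genes passed the filter on low counts, and their counts ran from 70 to 5715 per library. The labels of shRNA and fusion held: Zkscan17 was at 29.0, 17.6 and 27.0 CPM with shNizp1#2, at 35.0, 26.2 and 30.4 CPM with shNizp1#1 and at 62.6, 49.4 and 61.8 CPM with the fusion and control shRNA. Nsd1 was at 788, 699 and 745 CPM with the fusion and control shRNA, against 185, 230 and 139 CPM with the empty vector. Kit was at 1930 to 3105 CPM and Cd34 at 1140 to 2022 CPM over the 12 libraries, while Ly6a, which encodes Sca-1, was at 23.8 to 277 CPM. Mast cell genes were high in every library, with a sum over 12 genes of 40547 to 65945 CPM, although the labels name a fraction that lacks lineage markers. In bulk RNA, fewer cells of a type and less RNA per cell cannot be told apart.

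Levels between genes are compared as CPM per kilobase of exonic length, averaged over the 12 libraries. Npm1, a histone and ribosome chaperone that is often mutated in acute myeloid leukaemia, was highest at 289 CPM per kilobase. Ncl, the major nucleolar RNA-binding protein nucleolin, followed at 88.6 CPM per kilobase. The H/ACA core protein gene Nhp2 stood at 61.2, the box C/D methyltransferase gene Fbl at 59.3 and the RNA helicase gene Ddx21 at 52.0 CPM per kilobase. The lowest were Wdr12, of the 60S complex with Pes1 and Bop1, at 3.94 CPM per kilobase, and Rrp1b, a nucleolar protein of 60S assembly, at 4.86 CPM per kilobase. These ranks depend on the exonic length in the count table, which was 10613 bases for Wdr12, 8202 for Ncl and 2031 for Npm1. In CPM alone, Ncl averaged 727 and Npm1 587, and Wdr12 at 41.8 lay above Rrp1b at 23.7. The ratio of a gene's highest to its lowest CPM over the 12 libraries ran from 1.45 (for Nop14 and Noc2l) to 3.06 (for Gar1), with a median of 1.95, against a median of 1.99 over all tested genes.

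**Figure D1:**
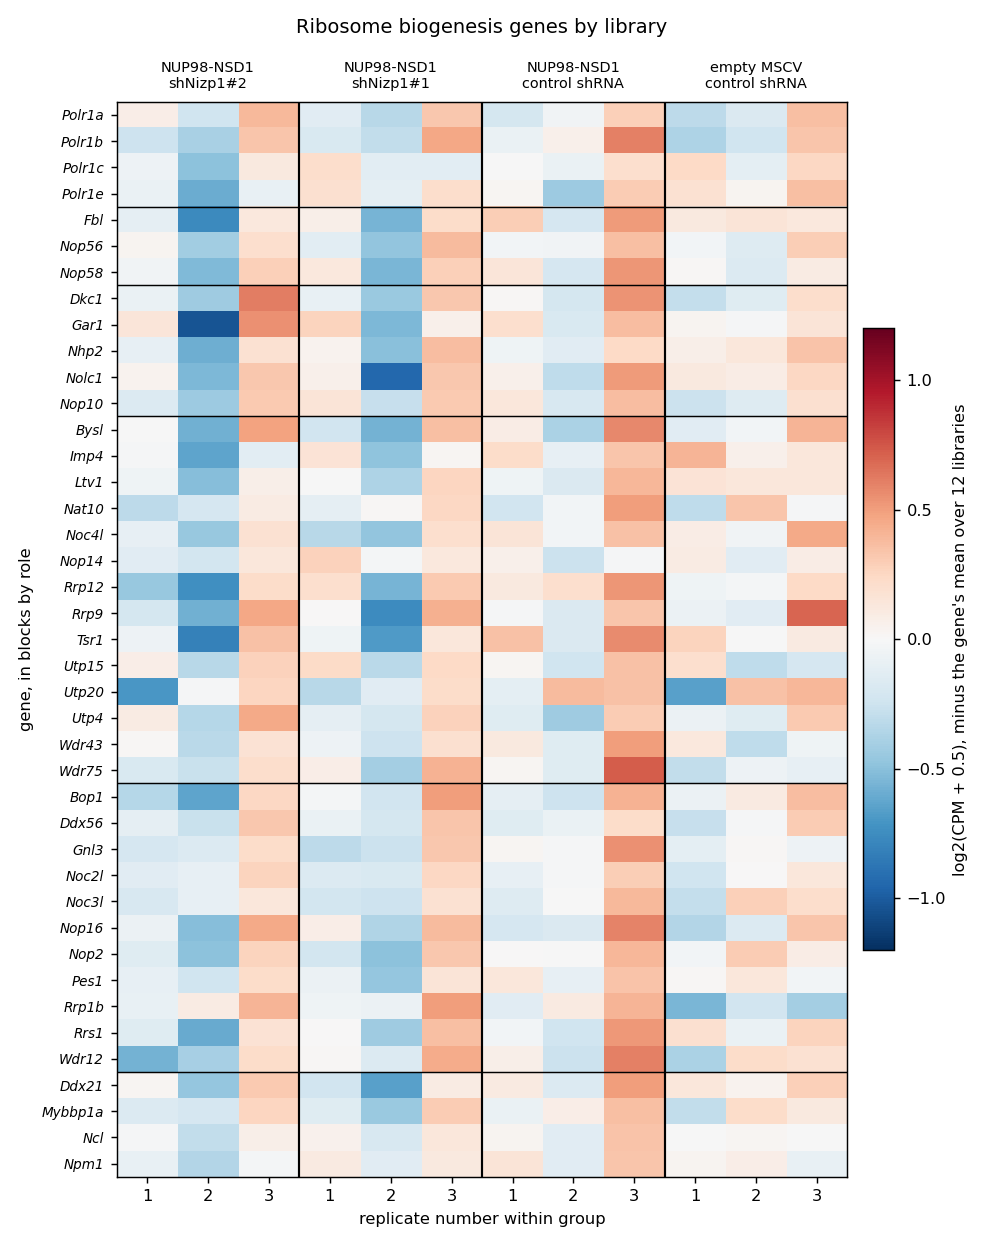
Each row is 1 of the 41 ribosome biogenesis genes, in blocks by role, and each column 1 library; colour gives log2(CPM + 0.5) minus the mean of the gene over the 12 libraries. Red (higher) fills most of the columns numbered 3 in the fusion-carrying groups, and blue (lower) most of the columns numbered 2 in both shNizp1 groups.

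The libraries fell apart by replicate number more than by group. The summed level of the 41 genes was 3601, 2936 and 4342 CPM in libraries 1, 2 and 3 with shNizp1#2, and 3799, 3044 and 4435 CPM with shNizp1#1. It was 3955, 3500 and 5016 CPM with the fusion and control shRNA, and 3764, 3891 and 4131 CPM with the empty vector. In each group the library numbered 3 was highest, and in the 3 fusion-carrying groups the library numbered 2 was lowest. The group means were 3626 ± 704, 3759 ± 697, 4157 ± 778 and 3929 ± 186 CPM (SD, n = 3) in the same order of groups, so that the groups overlapped. Ncl and Npm1 make up a large share of these sums, and without them number 3 was again the highest library of each group, at 2861 to 3365 CPM.

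**Figure D2:**
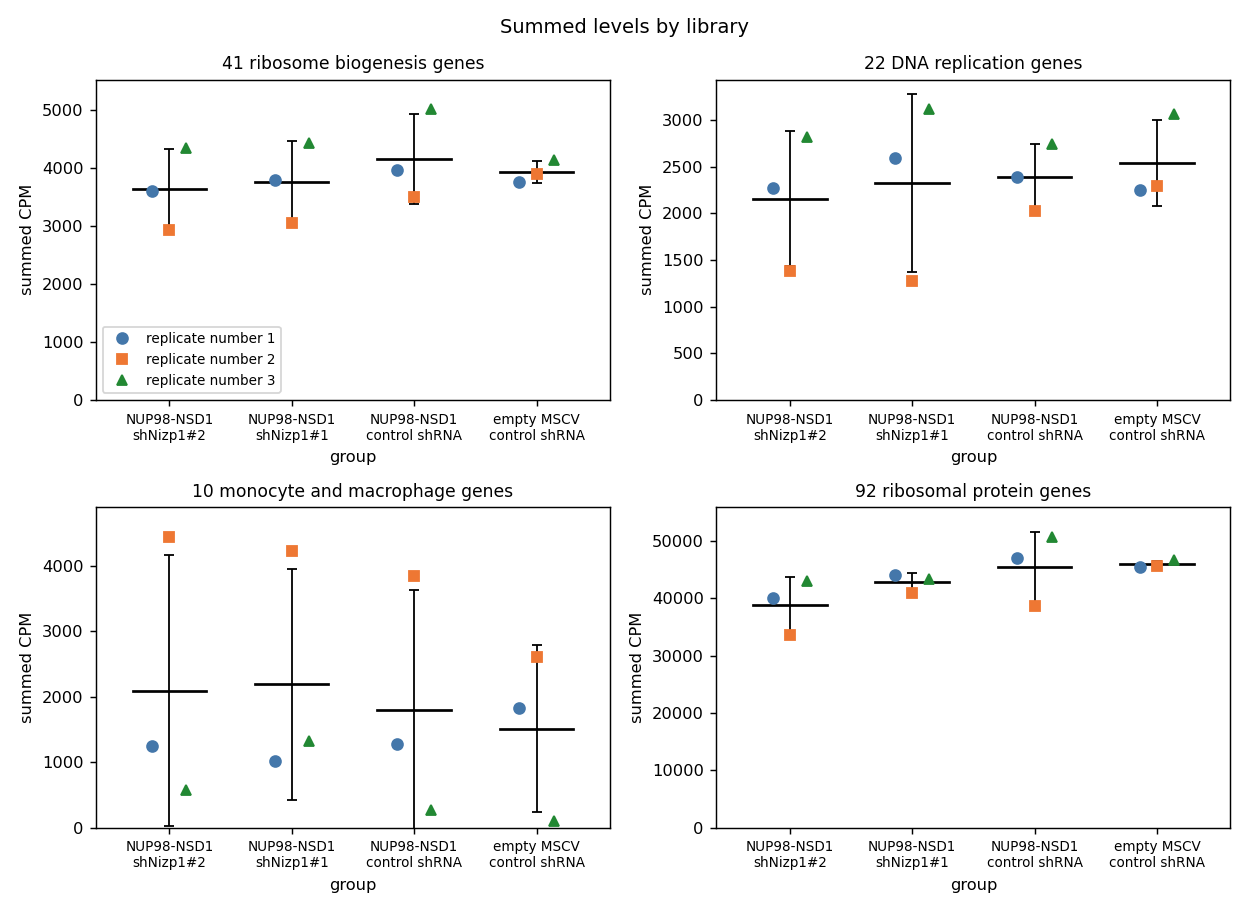
Points are single libraries, marked by replicate number; the vertical axes give summed CPM of the 41 ribosome biogenesis genes, 22 DNA replication genes, 10 monocyte and macrophage genes and 92 ribosomal protein genes, and bars give the mean and SD of each group (n = 3; a bar that would reach below 0 is cut at 0). Number 3 was highest in every group for the first 2 sums, and number 2 was highest in every group for the monocyte and macrophage sum.

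Same-numbered libraries deviated together across all genes (r of 0.20 to 0.87 in 18 of 18 pairs). Group comparisons are therefore given from an edgeR quasi-likelihood model that holds the replicate number as a block. The unblocked model stands beside it for counts of the 41 genes that passed a threshold. Unless stated otherwise, values of single genes and of other gene lists are from the blocked model only. In each group comparison, the median SE over the 41 genes was 0.13 with the block and 0.24 without it. Called means a Benjamini-Hochberg adjusted p under 0.05 over 11994 genes.

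The first question was whether the fusion changed the levels of these genes. With NUP98-NSD1 and the control shRNA, 26 of the 41 genes lay above and 15 below the empty vector, with a median log2 fold change of 0.07 (1.05-fold). None was called with edgeR, with or without the block, nor with DESeq2 or limma-voom, while 0.25% of all genes were called higher and 0.025% lower with the block (0.00834% and 0% without it). An unadjusted p under 0.05 was reached by 4 genes higher and 0 lower with the block, against 6.003% of all genes higher and 4.99% lower. Without the block 1 was higher and 0 lower, against 1.83% and 0.842% of all genes. The 4 with the block were the RNA polymerase I subunit gene Polr1b, the processome genes Wdr75 and Wdr43, and Rrp1b.

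Rrp1b (mm10 chr17:32036100-32062865, plus strand) was at 21.0, 25.0 and 30.8 CPM with the fusion and control shRNA, against 15.7, 19.7 and 17.4 CPM with the empty vector. It was the only member whose fusion libraries all lay above those of the empty vector, a pattern shown by 3.68% of all genes, and 0 members lay wholly below (3.74% of all genes). Its log2 fold change was 0.53 ± 0.16 (SE), with an edgeR adjusted p of 0.250. With the fusion and either Nizp1 shRNA, Rrp1b was at 21.7, 24.7 and 31.0 CPM (shNizp1#2) and at 22.4, 22.0 and 32.9 CPM (shNizp1#1), so that in each replicate number the empty-vector library was the lowest of the 4. Rrp1b shares 54 exonic bases with Hsf2bp on the other strand.

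Wdr75, a WD-repeat protein of the processome, was at 36.8, 32.6 and 60.1 CPM with the fusion and control shRNA, against 29.3, 34.6 and 33.7 CPM with the empty vector. Only the libraries numbered 1 and 3 were above their empty-vector partners, and the log2 fold change was 0.37 ± 0.16 (SE; edgeR adjusted p of 0.425). With the block it was 0.19 without library 3 of the empty vector, 0.22 without library 3 of the fusion with control shRNA and 0.56 without library 2 of the empty vector. At the other end, Polr1e, which encodes the A49-related subunit of RNA polymerase I, was at 31.8, 22.9 and 38.5 CPM with the fusion and control shRNA, against 35.5, 31.8 and 40.2 CPM with the empty vector. Nhp2 was at 60.2, 56.8 and 74.0 CPM, against 65.8, 68.7 and 79.3 CPM. Both were lower in all 3 pairs while the groups overlapped, and their log2 fold changes of -0.22 ± 0.13 and -0.17 ± 0.13 (SE) were not called. With the block, omission of 1 library gave -0.32 to -0.14 for Polr1e and -0.25 to -0.028 for Nhp2, the last without library 2 of the empty vector.

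Within replicate numbers, the fusion's median log2 difference over the 41 genes was 0.10 in number 1, -0.15 in number 2 and 0.25 in number 3. The sign thus differed between pairs. In number 2 there were 31 genes below the empty vector, and in number 3 there were 31 above it. Of the 41, 3 were higher in all 3 pairs (15.9% of all genes) and 4 lower in all 3 pairs (16.3% of all genes).

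**Figure D3:**
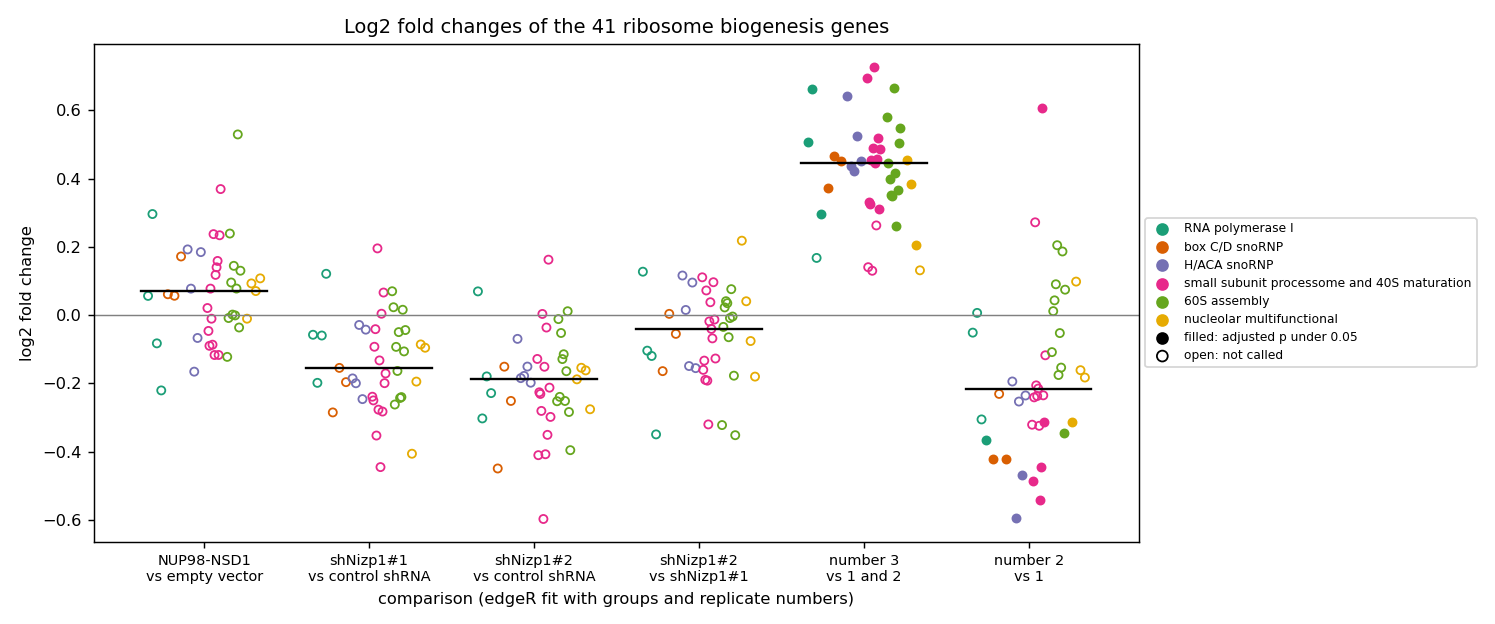
Each point is 1 of the 41 genes, coloured by role, with its log2 fold change from the edgeR fit with groups and replicate numbers; filled points were called (adjusted p under 0.05), open points were not, and bars are medians. No point is filled in the 4 group comparisons, 36 are filled above 0 for number 3 against 1 and 2, and 12 are filled for number 2 against 1.

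The next question was what Nizp1 knockdown did in fusion cells. With shNizp1#2, 37 of the 41 genes lay below the control shRNA and 4 above, with a median log2 fold change of -0.19 (0.878-fold), while the median of all genes was 0.00. With shNizp1#1, 34 lay below and 7 above, with a median of -0.15 (0.898-fold). Both comparisons use the same 3 control libraries. No gene of the 41 was called for either shRNA with edgeR, with or without the block, or with limma-voom, and DESeq2 called 1, Ddx21 with shNizp1#1, only with the block. Of all genes, edgeR with the block called 0.142% higher and 0.075% lower with shNizp1#2, and 0.509% higher and 1.12% lower with shNizp1#1.

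At an unadjusted p under 0.05 in the blocked fit, 12 of the 41 genes were lower and 0 higher with shNizp1#2, against 5.12% of all genes lower. With shNizp1#1, 5 were lower and 0 higher, against 6.67% of all genes lower. Without the block both counts were 0, against 1.03% (shNizp1#2) and 2.43% (shNizp1#1) of all genes lower. The genes under that mark with shNizp1#2 came from 5 of the 6 roles: Polr1b, Fbl, Nop58, Imp4, Noc4l, Utp20, Rrp12, Tsr1, Rrs1, Bop1, Wdr12 and Npm1. With shNizp1#1 they were Imp4, Noc4l, Tsr1, Gnl3 and Ddx21.

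By pairs, 30 of the 41 genes were lower in all 3 replicate numbers with shNizp1#2, where 19.1% of all genes were, and 1, Utp4, was higher in all 3, where 20% of all genes were. With shNizp1#1, 19 of the 41 were lower in all 3, where 18.1% of all genes were, and 2, Nop14 and Bop1, were higher in all 3, where 17.2% of all genes were. No group of 3 lay wholly below the controls for either shRNA, a pattern shown by 3.04% of all genes with shNizp1#2 and 4.42% with shNizp1#1, and none wholly above (3.48% and 3.96% of all genes). With shNizp1#2 the median log2 difference was -0.10 in number 1, -0.24 in number 2 and -0.16 in number 3. With shNizp1#1 it was -0.01, -0.24 and -0.16. The 41 genes move together, so they are not independent observations of a direction.

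Rrp12, a factor of 40S maturation and export (mm10 chr19:41862851-41896173, minus strand), had the lowest fold change with shNizp1#2. It was at 24.1, 19.8 and 38.7 CPM with shNizp1#2, against 35.9, 38.2 and 48.1 CPM with the control shRNA. All 3 pairs were lower and the groups overlapped by 1 library, with a log2 fold change of -0.60 ± 0.16 (SE; edgeR adjusted p of 0.176). With shNizp1#1, Rrp12 was at 38.3, 22.3 and 41.4 CPM, higher than its control partner in number 1 only.

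Fbl (mm10 chr7:28169710-28179269, plus strand) encodes fibrillarin, the methyltransferase of box C/D particles. Its levels were 64.1, 40.3 and 75.3 CPM with shNizp1#2 and 72.6, 46.9 and 80.5 CPM with shNizp1#1, against 84.8, 60.2 and 98.9 CPM with the control shRNA. All pairs were lower for both shRNAs, with log2 fold changes of -0.45 ± 0.14 and -0.29 ± 0.15 (SE; edgeR adjusted p of 0.267 and 0.464). The empty-vector libraries, at 75.2, 77.1 and 75.6 CPM, lay within the range of the fusion libraries with the control shRNA.

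Ddx21, an RNA helicase that acts in both RNA polymerase I and II transcription (mm10 chr10:62580251-62602281, minus strand), was at 205, 152 and 257 CPM with shNizp1#1, against 258, 214 and 341 CPM with the control shRNA. Its log2 fold change was -0.41 ± 0.10 (SE), with an adjusted p of 0.0731 in edgeR and 0.0210 in DESeq2, both with the block. Without the block DESeq2 gave an adjusted p of 1.00. With shNizp1#2 it was at 244, 174 and 299 CPM, lower in all 3 pairs with a log2 fold change of -0.19 ± 0.10 (SE; edgeR adjusted p of 0.527).

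Tsr1, known in yeast to keep 40S precursors from joining 60S subunits too early (mm10 chr11:74898078-74909342, plus strand), was at 85.2, 54.7 and 96.9 CPM with shNizp1#1 and at 84.6, 50.1 and 112 CPM with shNizp1#2, against 113, 77.9 and 131 CPM with the control shRNA. Each pair was lower for both shRNAs, with log2 fold changes of -0.45 ± 0.14 (shNizp1#1) and -0.41 ± 0.14 (shNizp1#2), not called. Tsr1 shares 1240 exonic bases with Srr on the other strand, and whether the counting used strand is not given in the sources used here, so its reads and those of Srr may not have been told apart.

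A few genes lay above the controls. Utp4, a processome subunit, was at 36.0, 26.4 and 46.5 CPM with shNizp1#2, against 30.4, 25.0 and 41.8 CPM with the control shRNA, and its log2 fold change was 0.16 ± 0.12 (SE). Polr1a, the largest subunit of RNA polymerase I, was at 70.0, 56.0 and 86.9 CPM with shNizp1#2, against 56.9, 64.3 and 80.5 CPM, with a log2 fold change of 0.07 ± 0.11 (SE). Nop14, of the processome, was at 74.2, 60.3 and 67.2 CPM with shNizp1#1, against 64.2, 51.3 and 60.6 CPM, and its log2 fold change was 0.20 ± 0.10 (SE; edgeR adjusted p of 0.467). Polr1e was at 35.7, 28.7 and 36.1 CPM with shNizp1#1, against 31.8, 22.9 and 38.5 CPM, with a log2 fold change of 0.12 ± 0.13 (SE). None of these was called, and Polr1a and Polr1e were each higher in 2 of 3 pairs.

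Between the shRNAs, 26 of the 41 genes lay lower with shNizp1#2 than with shNizp1#1 and 15 higher, with a median log2 fold change of -0.04. None was called in any of the 3 tools with or without the block, while edgeR with the block called 1.78% of all genes higher and 0.584% lower. At an unadjusted p under 0.05, 3 of the 41 were lower with the block (Polr1e, Bop1 and Wdr12), against 6.20% of all genes, and 0 without it, against 1.92% of all genes. This share of the 41 lay near that of all genes. Wdr12 was at 27.2, 30.8 and 47.4 CPM with shNizp1#2, against 41.2, 36.3 and 55.7 CPM with shNizp1#1, a log2 fold change of -0.35 ± 0.16 (SE; edgeR adjusted p of 0.332). Its partner in the complex, Bop1, was at 60.7, 49.5 and 91.4 CPM, against 75.7, 65.6 and 109 CPM. Polr1e was at 29.5, 20.4 and 29.2 CPM, against 35.7, 28.7 and 36.1 CPM, a log2 fold change of -0.35 ± 0.13 (SE; edgeR adjusted p of 0.201). All 3 of these genes were lower in all 3 pairs, as were 14 of the 41 genes, where 20.6% of all genes were, and 4 were higher in all 3 pairs, where 22.2% of all genes were. At the other end, Ddx21 and Polr1a, whose levels are given above, had log2 fold changes of 0.22 ± 0.10 and 0.13 ± 0.11 (SE), not called. For no member did the 2 groups separate without overlap, as they did for 4.87% of all genes upward and 4.34% downward.

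Among other genes of the pathway, fixed lists gave few calls for the group comparisons. With shNizp1#2 against the control shRNA, 36 of 43 further processome and 40S genes and 44 of 46 further 60S assembly genes lay below 0, with median log2 fold changes of -0.15 and -0.16 and none called. Of 16 further RNA polymerase I genes, 12 lay below 0 (median of -0.06), as did 8 of 10 snoRNP assembly genes (-0.23) and 11 of 13 exosome genes (-0.15), while 8 of 12 tested MYC network genes lay above 0 (0.10), none called. Of 82 tested ribosomal protein genes, 81 lay below 0 with a median of -0.22, and none was called with edgeR and the block. An unadjusted p under 0.05 was reached by 46 of the 82 with the block, against 11.1% of all genes. Without the block it was reached by 13 of the 82, against 2.38% of all genes. With shNizp1#1, 32 of the 43 processome and 40S genes and 38 of the 46 60S genes lay below 0, each with a median of -0.10. The further RNA polymerase I genes split into 9 below and 7 above 0 (median of -0.01), the exosome genes into 8 and 5 (-0.02) and the MYC network genes into 7 and 5 (-0.03), and 8 of 10 snoRNP assembly genes lay below 0 (-0.10), none called. With shNizp1#1, 65 of the 82 lay below 0 with a median of -0.09, and 1 was called lower, Rpl39, with a log2 fold change of -0.40 ± 0.09 (SE; edgeR adjusted p of 0.0446). Between the shRNAs, 2 ribosomal protein genes, among them Rps6 (-0.44), were called lower with shNizp1#2 and 1, Rpl39 (0.39), was called higher. Of the MYC network, 1 gene, Mlxip (0.49), was called higher. No gene of the other 5 lists was called between the shRNAs.

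Cell cycle and cell type genes were read from the same fits. All 22 DNA replication genes lay below 0 with shNizp1#2 (median log2 fold change of -0.22, none called), and 17 of 22 with shNizp1#1 (median of -0.09). Of 22 mitosis genes, 20 lay below 0 with shNizp1#2 (median of -0.15) and 22 with shNizp1#1 (median of -0.21), none called. Of 14 neutrophil genes, 5 were called lower with shNizp1#1 and 0 with shNizp1#2. Their part in the values of the ribosome biogenesis genes was not tested. Myc did not pass the test in any group comparison, with log2 fold changes of -0.05 to 0.14.

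The clearest difference among the 41 genes lay between replicate numbers. In number 3, against the mean of numbers 1 and 2 over all 4 groups, 36 of the 41 genes were called higher and 0 lower, while 20.8% of all genes were called higher and 23.2% lower. All 41 log2 differences were above 0, with a median of 0.45 (1.36-fold), and the median of all genes was 0.01. For 16 of the 41, the lowest of the 4 libraries numbered 3 lay above the highest of the other 8 libraries, where 6.68% of all genes showed this. The fit takes the 4 libraries of a number as independent, although same-numbered libraries deviated together. If a number marks 1 experiment, these p-values measure how alike the groups were and not the spread between experiments. The labels do not say what a replicate number stands for or what else differed between the numbers, so a cause for number 3 cannot be told apart from the number itself.

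Calls were spread over the roles: 3 of 4 RNA polymerase I subunits, 3 of 3 box C/D genes, 5 of 5 H/ACA genes, 11 of 14 processome and 40S genes, 11 of 11 60S assembly genes and 3 of 4 multifunctional genes. Median log2 differences were 0.40, 0.45, 0.45, 0.45, 0.42 and 0.30 in that order of roles. The 5 genes not called were Nop14 (0.13), Npm1 (0.13), Imp4 (0.14), Polr1c (0.17) and Utp15 (0.26). Npm1 and Ncl, the most abundant transcripts per length, moved least within their role, and Ncl was called at 0.21 ± 0.07 (SE; edgeR adjusted p of 0.0347).

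The largest difference was that of Rrp9, a protein that binds the U3 small nucleolar RNA of the processome (mm10 chr9:106477269-106485424, plus strand). In number 3, Rrp9 was at 47.4 (shNizp1#2), 46.1 (shNizp1#1), 43.2 (fusion with control shRNA) and 55.8 CPM (empty vector). In numbers 1 and 2 it was at 29.5 and 22.7, 34.3 and 20.1, 33.9 and 30.2, and 32.5 and 31.1 CPM in the same order of groups. Every library numbered 3 lay above every other library, and the log2 difference was 0.73 ± 0.11 (SE), with an edgeR adjusted p of 1.25e-04.

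Bysl (mm10 chr17:47599331-47611492, minus strand) encodes bystin, which acts in 40S maturation. It was at 69.7, 64.2, 74.4 and 66.2 CPM in number 3, and at 33.1 to 53.0 CPM in the other 8 libraries. The sets did not overlap, and the log2 difference was 0.69 ± 0.09 (SE; edgeR adjusted p of 6.60e-05). Bysl shares 361 exonic bases with Ccnd3, the cyclin D3 gene, on the other strand. Nop16, a 60S factor, had a log2 difference of 0.66 ± 0.10, Polr1b, the second largest subunit of RNA polymerase I, 0.66 ± 0.09, and Dkc1, the pseudouridine synthase dyskerin, 0.64 ± 0.09 (SE).

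Nop14 was at 67.5, 67.2, 60.6 and 65.4 CPM in number 3, and at 51.3 to 74.2 CPM in the other 8 libraries. The sets overlapped, and it was the gene with the smallest ratio between libraries besides Noc2l. Npm1 was at 574, 632, 735 and 549 CPM in number 3, against 457 to 650 CPM in the other 8, and its empty-vector library numbered 3 was the lowest of its group.

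**Figure D4:**
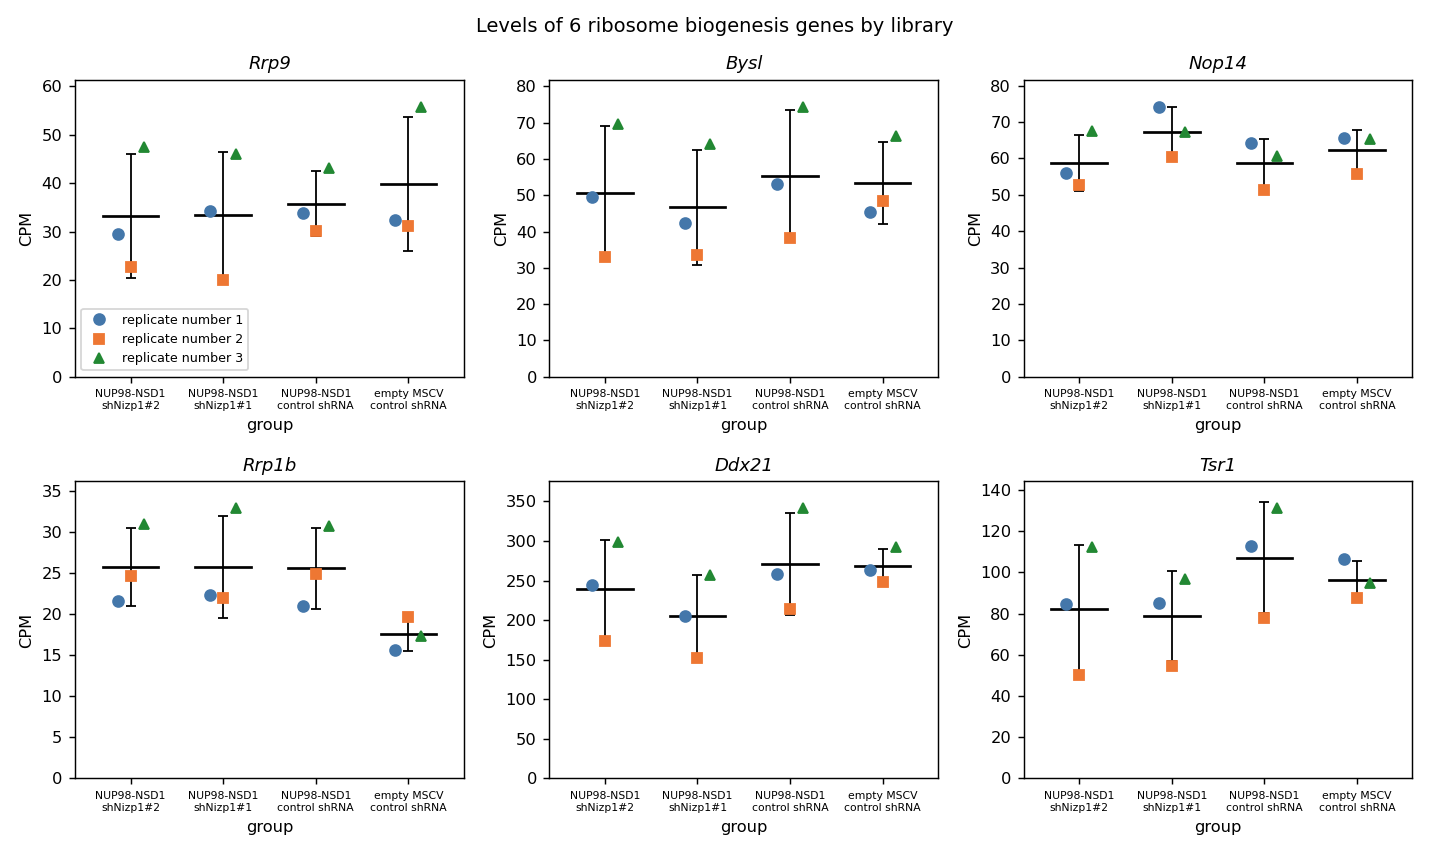
CPM of 6 genes in each library, by group (tick labels) and replicate number (marker), with the mean and SD of each group (n = 3). Number 3 stands above the other libraries for Rrp9 and Bysl, does not for Nop14, and for Rrp1b the empty-vector libraries sit lowest in every number.

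Within groups, the median log2 difference of number 3 over the 41 genes was 0.51 with shNizp1#2, 0.50 with shNizp1#1, 0.46 with the fusion and control shRNA and 0.19 with the empty vector. The genes above 0 numbered 41, 40, 41 and 29. For 19 of the 41, number 3 was above both other libraries in all 4 groups, where 14.7% of all genes were. Leaving out a group, edgeR called 39 of the 41 higher without the empty vector (20.8% of all genes), 27 without shNizp1#1 (15.0%), 24 without the fusion with control shRNA (14.9%) and 23 without shNizp1#2 (11.02%).

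Whether number 3 differed between fusion-carrying and empty-vector libraries was tested with an interaction term, chosen after the data were seen. The median log2 difference of the differences was 0.30 (fusion-carrying minus empty vector), and 37 of the 41 genes were above 0, where 54.1% of all genes were. With edgeR none was called, with a lowest adjusted p of 0.102 (Tsr1), while 0.717% of all genes were called. At an unadjusted p under 0.05, 16 of the 41 were above 0 and 0 below, against 6.12% and 5.54% of all genes. Only 1 empty-vector library carries each number, so the term rests on 3 libraries on that side. The fit takes the 3 fusion-carrying libraries of a number as independent, although same-numbered libraries deviated together. Since the 41 genes also move together, a shift of 1 empty-vector library could give such counts.

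In number 2 against number 1, 11 of the 41 genes were called lower and 1 higher, while 12.6% of all genes were called lower and 13.4% higher. The median log2 difference was -0.22, and that of all genes -0.04. Those called lower were Polr1e, Fbl, Nop58, Gar1, Nolc1, Imp4, Tsr1, Utp15, Wdr43, Rrs1 and Ddx21. Gar1, an H/ACA core protein, was at 13.8, 19.5, 25.2 and 28.4 CPM in number 2 (shNizp1#2, shNizp1#1, fusion with control shRNA and empty vector), against 31.8, 34.7, 33.1 and 29.3 CPM in number 1. Each pair was lower, by little in the empty vector, and the log2 difference was -0.60 ± 0.20 (SE; edgeR adjusted p of 0.0415). Gar1 remained called in 5 of 12 fits with 1 library omitted, with differences of -0.76 to -0.33 (the last without library 2 of shNizp1#2), and in 1 of 4 fits with a group omitted, that without the empty vector.

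The gene called higher was Utp20, a large processome component. It was at 43.6, 40.2, 57.6 and 56.5 CPM in number 2, against 27.1, 35.0, 40.5 and 27.9 CPM in number 1, and the sets overlapped only in 1 library each, with a log2 difference of 0.61 ± 0.12 (SE; edgeR adjusted p of 0.00353). Within groups the median log2 difference of the 41 genes was -0.35 with shNizp1#2, -0.33 with shNizp1#1, -0.17 with the fusion and control shRNA and 0.05 with the empty vector. The interaction with the fusion had a median of -0.33, with no gene of the 41 called, a lowest edgeR adjusted p of 0.197 and 0.167% of all genes called. At an unadjusted p under 0.05, 14 of the 41 were below 0 and 0 above, against 6.78% and 6.20% of all genes. The limits given for the interaction in number 3 hold here as well. With 1 library omitted, a choice made after seeing the data, edgeR called 4 genes without library 2 of shNizp1#2, 4 without library 1 of shNizp1#1, 5 without library 2 of the fusion with control shRNA, 6 without library 1 of shNizp1#2, 7 without library 2 of shNizp1#1 and 19 without library 2 of the empty vector. Over all 12 such fits, 13.8% to 28.9% of all genes were called. Without single groups the number called among the 41 was 2 without shNizp1#2 (9.42% of all genes), 2 without shNizp1#1 (16.2%), 3 without the fusion with control shRNA (12.6%) and 16 without the empty vector (30.6%).

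Other pathway genes were higher in number 3 as well, where 20.8% of all genes were called higher and 23.2% lower. Of 43 further processome and 40S genes, 26 were called higher and 0 lower, among them Tbl3 (log2 difference of 0.74), Pwp2 (0.63) and Wdr36 (0.62). Of 46 further 60S assembly genes, 24 were called higher, among them Urb2 (0.67) and Mrto4 (0.62), and 1 lower, Ddx24 (-0.25). The RNA exosome, which trims precursor RNA, had 9 of 13 tested genes called higher, including Exosc2 (0.61). Of 16 further RNA polymerase I genes 6 were called higher, with Rrn3, its initiation factor, at 0.36, and of 10 snoRNP assembly genes 4 were. Of 82 ribosomal protein genes 25 were called higher and 1 lower, with a median of 0.15. In number 2 against 1, 12.6% of all genes were called lower and 13.4% higher. Of the 43 further processome and 40S genes, 4 were called lower and 1, Heatr1 (0.53), higher. Of the 46 further 60S genes, 7 were called lower, among them Nmd3 (-0.65) and Brix1 (-0.59), and 2 higher, Mdn1 (1.88) and Urb1 (0.48). Of the 10 snoRNP assembly genes, 1 was called lower, Naf1 (-0.70). Of the 16 further RNA polymerase I genes, 2 were called lower and 1 higher. In these lists the share called lower lay near or below that of all genes. Calls also fell on 3 of 13 exosome genes lower, among them Mphosph6 (-0.94), and on 16 of 82 ribosomal protein genes lower.

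Among 12 tested genes of the MYC network, 1 was called higher and 7 lower in number 3, against 20.8% and 23.2% of all genes. Myc was at 94.3 to 117 CPM over the 12 libraries, and its log2 difference of 0.01 ± 0.06 (SE) was not called (edgeR adjusted p of 0.879). The genes of its antagonists Mxi1 (-2.21), Mxd1 (-0.92) and Mxd4 (-0.78) were lower, and Mxd3 (0.47) was higher. Max was at 71.4 to 83.9 CPM in number 3, and at 81.7 to 106 CPM in numbers 1 and 2. Mycn was at 8.69 CPM in number 3 with the empty vector, against 34.4 and 31.8 CPM in numbers 1 and 2. With the fusion and control shRNA it was at 33.0 CPM, against 51.7 and 38.2 CPM. With either Nizp1 shRNA, Mycn in number 3 lay between numbers 1 and 2. The part of these genes in the values of the ribosome biogenesis genes was not tested.

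DNA replication and cell type genes differed between the numbers in the same libraries. Of all genes, 20.8% were called higher and 23.2% lower in number 3. Of 22 DNA replication genes, 21 were called higher in number 3, and their summed level was 2748 to 3119 CPM in number 3, 1269 to 2295 CPM in number 2 and 2249 to 2592 CPM in number 1. Of 22 mitosis genes, 4 were called higher and 1 lower, shares below those of all genes. Monocyte and macrophage genes summed to 105 to 1320 CPM in number 3, against 2614 to 4451 CPM in number 2 and 1024 to 1824 CPM in number 1, with 9 of 10 called lower in number 3. Neutrophil genes summed to 466 to 993 CPM in number 3, against 1296 to 2491 CPM in number 2 and 550 to 790 CPM in number 1, with 13 of 14 called lower and 1 higher. Ctsg made up most of the sums in number 3, at 461 to 982 CPM there, against 134 to 295 CPM in the other 8 libraries. S100a8, in contrast, was at 0 to 0.434 CPM in number 3 and at 37.8 to 333 CPM in the other 8, so the sums hide the fall of most of these genes. Mast cell genes summed to 40547 to 47448 CPM in number 3 and to 49298 to 65945 CPM in the other 8 libraries, with 9 of 12 called lower. Their part in the values of the 41 genes was not tested.

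Since the genes moved together between numbers, their promoters were searched in the RefSeq windows of GRCm38.p6, which were found for 36 of the 41. The MYC E-box CACGTG, which reads the same on both strands, lay in the 250 bases upstream of the start in 2 of 36 (5.56%), Imp4 and Nop2, and in 6.86% of 27025 genes with a window. The ETS core, searched as CTTCCG or CGGAAG, which are the same motif on the 2 strands, lay in 14 of 36 (38.9%) and in 15.3% of the 27025. The motifs do not overlap each other in the windows shown. The 27025 genes were not limited to those that passed the filter on low counts, as the members did. Whether either motif is more frequent in the members than in other expressed genes was therefore not tested. A match is a description of letters and not a bound site, and no factor was measured. The windows of both E-box genes are shown with those of Rrp9 and Bysl, which had the largest log2 differences in number 3. They are the stretch before the RefSeq start, 5′ to 3′ on the strand of the gene, without bases inside the deposited gene span, with both motifs in capitals.
Imp4, chr1:34439679-34439828, plus strand: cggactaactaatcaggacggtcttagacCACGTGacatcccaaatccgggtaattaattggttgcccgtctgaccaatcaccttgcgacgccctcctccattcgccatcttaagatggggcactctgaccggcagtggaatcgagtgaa
Nop2, chr6:125131733-125131882, plus strand: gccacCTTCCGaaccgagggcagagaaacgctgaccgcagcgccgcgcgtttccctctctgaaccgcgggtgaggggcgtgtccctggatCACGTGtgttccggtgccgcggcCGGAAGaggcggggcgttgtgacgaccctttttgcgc
Rrp9, chr9:106477159-106477268, plus strand: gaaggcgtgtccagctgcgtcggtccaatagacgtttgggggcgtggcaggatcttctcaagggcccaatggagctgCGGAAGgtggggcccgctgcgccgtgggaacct
Bysl, chr17:47611493-47611642, minus strand: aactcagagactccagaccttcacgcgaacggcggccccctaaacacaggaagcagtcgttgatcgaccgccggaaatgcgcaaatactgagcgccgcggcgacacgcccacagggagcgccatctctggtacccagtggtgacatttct
The Imp4 window holds 1 E-box and no ETS core, that of Nop2 1 E-box and 2 ETS cores, that of Rrp9 1 ETS core and that of Bysl neither. In number 3, Imp4 was not called (0.14 ± 0.08), whereas Nop2, an rRNA methyltransferase, had a log2 difference of 0.42 ± 0.12 (SE; edgeR adjusted p of 0.0121).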

How the data were processed

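RNA was sequenced from 12 libraries in 4 groups of 3. Per the labels' protocols, a stranded mRNA kit was used on 1 µg of total RNA, with single-end reads of 75 nt. The submitters' processing notes list Trimmomatic 0.32, STAR 2.5.3a, featureCounts and the build mm10; the strand setting and the annotation of the counting are not given in the sources. The deposited values are whole-number counts per gene.

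Genes low in counts were removed with the filterByExpr function of edgeR 4.0.16 (R 4.3.3), which left 11994. The main test was its robust quasi-likelihood test with TMM scaling on all 12 libraries, 1 mean per group, with Benjamini-Hochberg adjustment over all genes and a threshold of 0.05. The replicate number was added as a block because same-numbered libraries correlated in 18 of 18 pairs (median r of 0.74, against -0.18 for other pairs), and the design text speaks of independent experiments. That fit also gave the contrasts of replicate numbers. SEs come from the F statistic. The scripts were tested on simulated data. Within groups, no pair of libraries agreed to within sampling noise, and pairs across groups were not checked.

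Alternatives were RLE and upper-quartile scaling, no filter, DESeq2 1.42.0, limma-voom (limma 3.58.1), fits on 2 groups, and omission of libraries, replicate numbers or groups. The interaction and the omission of libraries from the contrasts of numbers were added after seeing the data. The members and lists were chosen with earlier results of these data known. The rule for genes given by library was the called ones or, with none called, the 2 highest and 2 lowest blocked fold changes. With 36 and 12 called in the contrasts of numbers, the extremes are given by library there and the others by counts. Others were added after seeing values. Pathway genes are named as examples only, and 1 result among them is not reported here. Of the 41 genes, 35 have the same span in GENCODE vM21, and 17 overlap an exon of another gene on the opposite strand, 8 of them by at least 100 bases (Polr1a, Nop14, Pes1, Mybbp1a, Noc2l, Imp4, Bysl and Tsr1), so their counts are uncertain. Exons of Gnl3, Nop56, Nop58 and Ncl share bases with small RNA genes on the same strand. Reads carry no molecular identifiers, so counting limits cover counting error only.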

Additional observations from a re-analysis of the deposited data

Results flagged for a closer look

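Over 126 sets of 4 libraries that share a replicate number, a gap test (Dixon's, at the 95% level) marked 2 values, where chance marks about 1 in 20 sets. Polr1c, a subunit of RNA polymerases I and III, was at 25.8 CPM with shNizp1#2 in number 2, while the other 3 libraries of that number were at 33.5 to 34.5 CPM. Rrp1b was at 17.4 CPM with the empty vector in number 3, while the other 3 libraries of that number, all with the fusion, were at 30.8 to 32.9 CPM.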

How the results depend on the processing

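With the replicate block, no count of called genes in the group comparisons changed except 1 gene (Ddx21) with shNizp1#1 under DESeq2. The median log2 fold changes of the 41 genes with the block were 0.07 for the fusion, -0.15 for shNizp1#1, -0.19 for shNizp1#2 and -0.04 between the shRNAs, against 0.09, -0.13, -0.18 and -0.04 without it. Omitting 1 library or number left 0 genes called in each, with unblocked medians of -0.11 (without library 3 of the fusion with control shRNA) to 0.16 for the fusion, -0.32 to 0.042 for shNizp1#1 (0.042 without library 3 of the control shRNA and 0.0053 without library 2 of shNizp1#1), -0.38 to -0.022 for shNizp1#2 and -0.23 to 0.13 between the shRNAs. Without the block an omission leaves groups with unequal numbers, and number 3 was high. With the block, they were -0.028 to 0.19, -0.22 to -0.10, -0.25 to -0.17 and -0.075 to -0.028 in that order with 1 number omitted, and -0.039 to 0.19, -0.18 to -0.067, -0.24 to -0.12 and -0.11 to -0.012 with 1 library omitted. Limma-voom gave -0.069 between the shRNAs. Reversed signs came only from such omissions: Polr1e with shNizp1#1 ranged from -0.066 to 0.30, Polr1a from -0.10 to 0.23 (with the block, -0.023 without shNizp1#2 library 1 and -0.048 without number 1) and Utp4 from -0.054 to 0.39 with shNizp1#2, and Polr1a from -0.052 to 0.34 between the shRNAs. In number 3, 35 to 37 genes were called higher across scalings and tools, where 16.1% to 24.4% of all genes were. With 1 library omitted it was 26 to 38, where 12.0% to 22.3% of all genes were called higher. Without the shNizp1#2 group it was 23 (11.02% of all genes). In number 2 against 1, the count was 4 to 19 with 1 library omitted. It was 2 without shNizp1#2, 2 without shNizp1#1, 3 without the fusion with control shRNA and 16 without the empty vector. Each omission of a group removes 3 of 12 libraries. The cause of these differences was not tested. With 3 libraries a group, the SE of a blocked log2 fold change was 0.086 to 0.221 over the group comparisons. Differences several times this size were not called either, down to -0.60 with shNizp1#2 and up to 0.53 with the fusion. That no gene was called therefore does not exclude changes of such a size.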
